A study of Saccharomyces cerevisiae with 15 samples.

Results

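*HO* is the budding yeast gene of the endonuclease that starts mating-type switching, and its transcript was followed here together with those of 4 of its regulators, *SWI4*, *SWI6*, *SWI5* and *ASH1*. The 5 genes were found by their symbols among the 5712 sense and 5122 antisense transcripts counted by stranded RNA-seq, and each was present in both sets. *HO* was chosen by its sense fold change against WT and the regulators for their known roles at its promoter, with earlier results of these data in view. The contrasts of *HO* with WT, all its contrasts with *jhd2Δ*, and the contrasts of the regulators between *jhd2Δ* and WT are therefore given as descriptions, with no test.

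The 5 strains were compared, each as 3 cultures grown to mid-log phase in rich medium. The *jhd2Δ* strain lacks Jhd2, the demethylase that removes methyl groups from lysine 4 of histone H3 (H3K4), through a KanMX replacement of the gene. The *set1Δ* strain lacks Set1, the H3K4 methyltransferase, through the same cassette. In *SET1* OE a Flag-tagged *SET1*, and in *SET1*-G990E OE a Flag-tagged hyperactive *SET1*-G990E, was expressed from the *ADH1* promoter at *URA3*, and both of these strains keep their own *SET1*. WT is HTABWT, from which *set1Δ* and both overexpression strains were derived, whereas *jhd2Δ* came from a separate derivative of the strain behind HTABWT. All 5 are haploid Mat a strains that lack both chromosomal copies of the H2A and H2B gene pairs (*hta1-htb1Δ*, *hta2-htb2Δ*), live on *HTA1-HTB1* from a centromeric *HIS3* plasmid and carry *lys2*, *his3* and *ura3* markers. Strains of this lineage commonly carry an inactive *ho* allele. The allele was not read here, and the counts measure *HO* RNA, not endonuclease activity.

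*HO* is transcribed for a short time late in G1, in haploid mother cells. In the usual account the activator Swi5 binds far upstream of the gene at the end of mitosis and brings in the SWI/SNF remodeller, the SAGA acetyltransferase complex and Mediator. These open the nearer part of the promoter, where SBF, a complex of the DNA-binding protein Swi4 with Swi6, later binds and switches the gene on. Ash1, whose mRNA is carried into the bud, recruits the Rpd3L deacetylase complex and keeps *HO* silent in daughter cells.

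*HO* (YDL227C) lies on chromosome IV at 46271 to 48031, on the minus strand, in the sacCer3 build. The 3083 bases between its start codon and the neighbouring gene *GCS1* form its upstream region. The Swi4-Swi6 recognition letters CACGAAA, searched on both strands in the reference genome (RefSeq R64, the same assembly as sacCer3), occurred 8 times in the first 1000 of these bases. All 8 matches were on the coding strand, with their first bases 860, 790, 757, 655, 598, 464, 432 and 249 bases upstream of the start codon. Of 5996 protein-coding genes with a window of this length, 12.7% had at least 1 match on either strand, 0.867% had at least 2, and *HO* alone had more than 3. The 2 stretches that hold the 8 matches, in capitals, are shown because they are what sets the *HO* promoter apart from the other promoters in sequence. They are written on the coding strand, 5′ to 3′.
*HO* upstream, 870 to 581 bases before the start codon (chrIV:48612-48901, minus strand): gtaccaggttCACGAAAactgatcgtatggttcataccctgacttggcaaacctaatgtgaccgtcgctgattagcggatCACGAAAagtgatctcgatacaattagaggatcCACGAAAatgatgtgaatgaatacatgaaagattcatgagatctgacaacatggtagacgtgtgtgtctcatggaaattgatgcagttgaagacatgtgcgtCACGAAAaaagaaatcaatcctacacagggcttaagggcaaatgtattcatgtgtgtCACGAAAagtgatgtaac
*HO* upstream, 480 to 236 bases before the start codon (chrIV:48267-48511, minus strand): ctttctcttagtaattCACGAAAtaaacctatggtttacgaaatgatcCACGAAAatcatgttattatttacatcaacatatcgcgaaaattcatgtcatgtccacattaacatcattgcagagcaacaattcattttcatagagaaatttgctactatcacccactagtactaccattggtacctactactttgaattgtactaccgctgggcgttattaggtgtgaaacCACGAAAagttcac

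The Swi5 core letters ACCAGC were found 1 time in the whole 3083 bases, 1308 bases before the start codon. They are printed because Swi5 is the activator known to bind that far upstream.
*HO* upstream, 1320 to 1291 bases before the start codon (chrIV:49322-49351, minus strand): tttaaaaaaaaaACCAGCatgctataatgc
Of 5990 windows of 3083 bases, 69.4% held ACCAGC at least 1 time, so this match does not set *HO* apart. A match to letters is a description and no evidence of binding.

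The regulators lacked the *HO* cluster of CACGAAA matches. Within 1000 bases of their start codons *SWI4* (chromosome V, 382595 to 385876, minus strand), *SWI6* (chromosome XII, 517940 to 520351, plus strand), *SWI5* (chromosome IV, 748613 to 750742, minus strand) and *ASH1* (chromosome XI, 94499 to 96265, plus strand) held 0 matches to CACGAAA and 0 to ACCAGC. *HO* itself also held 0 matches to ACCAGC in a window of that length. In 3083 bases *SWI6* held 2 matches to ACCAGC, and *SWI4* and *ASH1* held 1 match each to CACGAAA. Within 1000 bases *SWI4* held 1 match to ACGCGT, the letters bound by Mbp1-Swi6, the sister complex of SBF, which 8.51% of windows of 1000 bases held.
*SWI4* upstream, 520 to 491 bases before the start codon (chrV:386367-386396, minus strand): gcgtttgaagtgACGCGTcactaaccatga

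**Figure D1:**
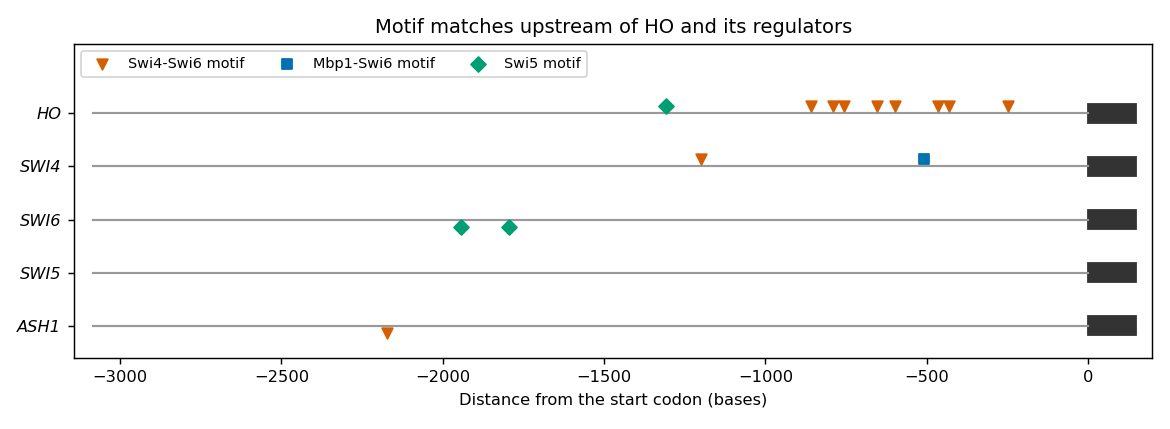
Matches to the Swi4-Swi6 letters CACGAAA (triangles), the Mbp1-Swi6 letters ACGCGT (squares) and the Swi5 letters ACCAGC (diamonds) in the 3083 bases upstream of each start codon; the x axis gives the distance in bases, symbols above the line are on the coding strand and symbols below it on the other strand. The 8 Swi4-Swi6 matches of *HO* lie within 860 bases of its start codon, and the windows of the other 4 genes, which run into neighbouring genes, hold at most 1 Swi4-Swi6 match each.

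Sense counts summed to 6903094 to 8947346 per library and antisense counts to 72664 to 106762. The deleted and overexpressed genes checked the strain labels: *JHD2* had 0 to 2 raw counts in *jhd2Δ* against 151 to 224 in the other strains, and *SET1* had 33 to 46 in *set1Δ*, 35966 to 42631 in *SET1* OE and 40284 to 42512 in *SET1*-G990E OE, against 822 to 908 in WT. The *SET1* counts of the 2 overexpression strains overlapped, so they did not check these 2 labels against each other. The cells were also checked for mating type. The summed normalized counts of 7 **a**-specific genes were 8016 to 12831 per library over all 15 libraries, those of the 4 counted genes of an α-specific list were 325 to 467, and the defining gene *MATALPHA1* was among the transcripts that the authors set apart for having under 10 counts. Most of the α-specific sum came from 1 gene, *SAG1*, with 222 to 366 normalized counts per library. *STE2*, the **a**-cell pheromone receptor gene, was lower in *set1Δ* (log2 fold change -0.68). Among the α-specific genes *MF(ALPHA)1*, a pheromone precursor gene, was higher in *set1Δ*, with 24.7, 30.4 and 26.3 normalized counts, against 8.98, 6.63 and 11.4 in WT, so that its reads stayed few in every strain.

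*HO* RNA was lowest in WT and higher in all 4 mutants. Counts were scaled to a common library size (normalized counts). *HO* had 489, 402 and 445 normalized counts in the *jhd2Δ* cultures, from 490, 416 and 460 reads. In the *SET1*-G990E OE cultures it had 356, 359 and 277. The *SET1* OE cultures gave 212, 202 and 235. Even the strain that lacks the methyltransferase stood above WT, with 176, 152 and 199 normalized counts in the *set1Δ* cultures, against 81.8, 75.8 and 123 in the WT cultures, which rest on 82, 80 and 129 reads. The order of the strains was therefore *jhd2Δ*, *SET1*-G990E OE, *SET1* OE, *set1Δ* and WT from high to low, and no neighbours in it overlapped, although the highest *set1Δ* culture (199) and the lowest *SET1* OE culture (202) almost touched.

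The means were 445 ± 43.6 in *jhd2Δ*, 176 ± 23.8 in *set1Δ*, 216 ± 16.7 in *SET1* OE, 331 ± 46.7 in *SET1*-G990E OE and 93.4 ± 25.6 in WT (SD, n = 3 each). As log2 fold changes against WT these were 2.25 in *jhd2Δ* (standard error 0.15), 0.91 in *set1Δ* (0.17), 1.21 in *SET1* OE (0.16) and 1.82 in *SET1*-G990E OE (0.15). Among the 5619 sense transcripts tested *HO* had the 2nd highest log2 fold change in *jhd2Δ*, the 12th in *SET1*-G990E OE, the 16th in *SET1* OE and the 99th in *set1Δ*. These ranks follow in part from the choice of *HO* by its fold change against WT and are a description only. All 4 fold changes share the same 3 WT cultures, of which the third was the highest, and without it they were 2.51 in *jhd2Δ*, 1.17 in *set1Δ*, 1.48 in *SET1* OE and 2.09 in *SET1*-G990E OE. In asynchronous cultures, a larger share of cells that express the gene and more RNA per expressing cell cannot be told apart.

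**Figure D2:**
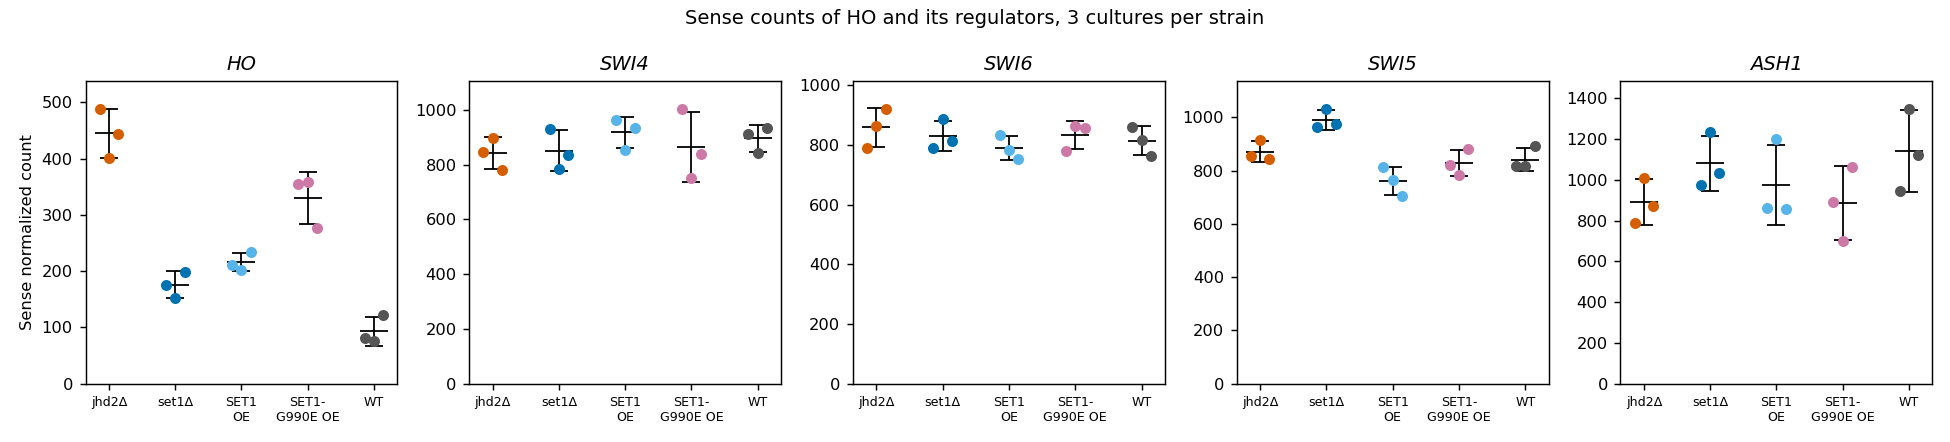
Sense normalized counts of *HO*, *SWI4*, *SWI6*, *SWI5* and *ASH1* on the y axes, which start at 0, in *jhd2Δ*, *set1Δ*, *SET1* OE, *SET1*-G990E OE and WT; points are cultures, horizontal ticks are means and bars are SD (n = 3). *HO* ranges from 75.8 to 489 with no overlap between strains next to each other in level, whereas *SWI4*, *SWI6* and *ASH1* overlap WT in every mutant.

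Pairs of the 3 Set1 mutants that do not involve WT or *jhd2Δ* were tested in edgeR (quasi-likelihood F test, p adjusted by the Benjamini-Hochberg method) over all 5619 sense transcripts. Calling a transcript took both an adjusted p under 0.05 and a change of 1.5-fold or more. The choice of *HO* may have used the fold changes of these 3 strains against WT, and its p values make no allowance for that. *HO* was higher in *SET1*-G990E OE than in *set1Δ* by 0.91 on the log2 scale (standard error 0.14, edgeR adjusted p = 5.4e-05), in a comparison that called 9.38% of transcripts. It was higher in *SET1*-G990E OE than in *SET1* OE by 0.61 (standard error 0.14, edgeR adjusted p = 0.027), 1 of the 13 transcripts, 0.231% of those tested, that were called between the 2 overexpression strains. Leaving out any of 5 of the 6 cultures ended that call. The adjusted p was 0.088 without *SET1*-G990E OE replicate 1, 0.18 without its replicate 2, 0.14 without *SET1* OE replicate 1, 0.10 without its replicate 2 and 0.059 without its replicate 3, with log2 differences of 0.56, 0.54, 0.59, 0.56 and 0.68. Over all 21 alternatives the adjusted p ran from 0.0023 to 0.18, and 16 kept the call. Between *SET1* OE and *set1Δ* the difference of 0.30 (standard error 0.15, edgeR adjusted p = 0.13) did not pass the test, with a 95% interval from -0.03 to 0.64 on the log2 scale. That comparison called 7.88% of transcripts. The values against *jhd2Δ* were -0.43 in *SET1*-G990E OE, -1.04 in *SET1* OE and -1.34 in *set1Δ*, so that among the Set1 mutants the hyperactive form came nearest to the loss of the demethylase.

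None of the 4 regulators was called in the 9 comparisons in which they were tested. In these 36 values the edgeR test called 0, 7 had an unadjusted p under 0.05 and 4 an adjusted p under 0.05, and DESeq2 also called 0, with 4 under an adjusted p of 0.05. The share of all transcripts called was 8.58% in *set1Δ*, 7.69% in *SET1* OE and 12% in *SET1*-G990E OE against WT. Between mutants it was 8.31% for *set1Δ* against *jhd2Δ*, 1.9% for *SET1* OE against *jhd2Δ* and 1.01% for *SET1*-G990E OE against *jhd2Δ*. Being uncalled was thus the common state of a transcript, and the intervals below say more than the count of 0.

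**Figure D3:**
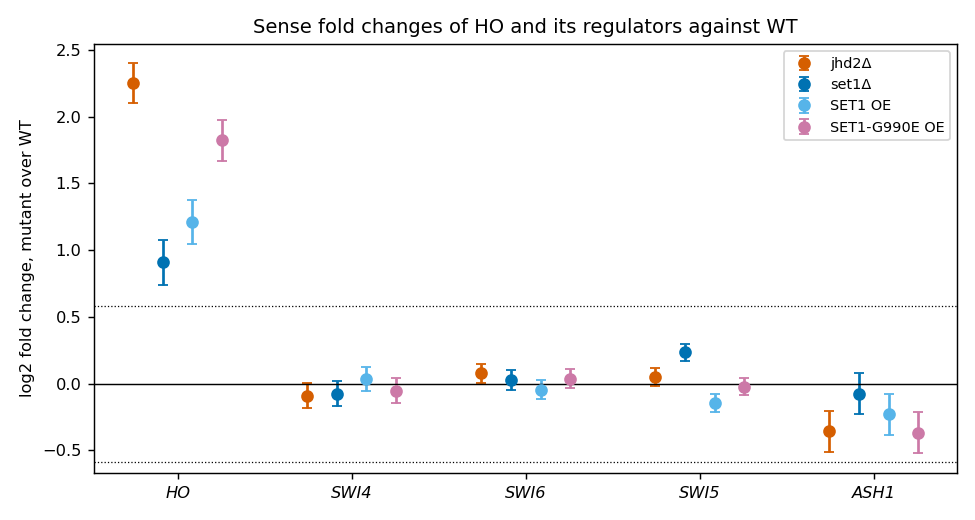
Log2 fold changes of sense counts over WT (y axis) for *HO* and its 4 regulators in *jhd2Δ*, *set1Δ*, *SET1* OE and *SET1*-G990E OE; points are estimates, bars are standard errors and the dotted lines mark a 1.5-fold change in either direction. *HO* lies between 0.91 and 2.25 and all regulator values lie between -0.37 and 0.23.

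*SWI4*, the DNA-binding subunit of SBF, was level across the strains. It had 847, 898 and 780 normalized counts in *jhd2Δ*, 931, 785 and 836 in *set1Δ*, 964, 854 and 933 in *SET1* OE and 1004, 751 and 837 in *SET1*-G990E OE, against 911, 841 and 933 in WT. Every mutant overlapped WT. The log2 fold changes were -0.09, -0.07, 0.04 and -0.05 in this order of mutants, and the 95% intervals of the 3 tested ones lay between -0.28 and 0.24, inside the 1.5-fold limit.

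*SWI6*, which encodes the shared subunit of SBF and of the Mbp1 complex, varied as little. Its normalized counts were 791, 863 and 921 in *jhd2Δ*, 788, 886 and 813 in *set1Δ*, 831, 782 and 752 in *SET1* OE and 780, 864 and 857 in *SET1*-G990E OE, against 860, 817 and 763 in WT. The log2 fold changes were 0.08, 0.03, -0.04 and 0.04, again with overlap of every mutant with WT. The tested 95% intervals lay between -0.20 and 0.19.

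*SWI5*, the activator that acts first at *HO*, was the regulator with a difference past the adjusted p threshold, though short of 1.5-fold. The *set1Δ* cultures had 962, 1033 and 976 normalized counts, above all 12 other cultures and against 817, 816 and 891 in WT. In *jhd2Δ* the counts were 857, 915 and 844, in *SET1* OE 812, 765 and 706, and in *SET1*-G990E OE 820, 785 and 880. *SWI5* was 0.23 higher in *set1Δ* than in WT on the log2 scale (standard error 0.065, adjusted p = 0.0077 by edgeR with Benjamini-Hochberg adjustment, 0.0043 to 0.033 over 21 alternatives). Against *set1Δ* it was lower by 0.38 in *SET1* OE (adjusted p = 0.00023 in the same edgeR test) and by 0.26 in *SET1*-G990E OE (adjusted p = 0.0039), and it was 0.18 higher in *set1Δ* than in *jhd2Δ* (adjusted p = 0.032). The strain with the most *SWI5* RNA was therefore the mutant with the least *HO* RNA. The fold changes against WT were 0.05 in *jhd2Δ*, -0.15 in *SET1* OE and -0.02 in *SET1*-G990E OE.

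*ASH1*, the repressor, was highest on average in WT but scattered widely between cultures. It had 789, 1011 and 872 normalized counts in *jhd2Δ*, 977, 1234 and 1035 in *set1Δ*, 863, 1201 and 858 in *SET1* OE and 889, 701 and 1064 in *SET1*-G990E OE, against 947, 1350 and 1122 in WT. All mutants overlapped WT. The log2 fold change was -0.36 in *jhd2Δ* and -0.37 in *SET1*-G990E OE (standard error 0.15 each), the 2 strains with the most *HO* RNA, and for *SET1*-G990E OE the test gave an adjusted p of 0.060 by edgeR with Benjamini-Hochberg adjustment. Over its 21 alternatives that adjusted p ran from 0.016 to 0.33 and was under 0.05 in 5. In *SET1* OE the log2 fold change was -0.23 (95% interval -0.57 to 0.11) and in *set1Δ* -0.08 (95% interval -0.42 to 0.27).

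Levels of different genes were compared per length, as TMM-scaled CPM per kb of the annotated gene. In WT *HO* was the lowest of the 5 at 6.78 ± 1.85 (SD, n = 3), below *SWI4* at 34.8 ± 1.88, *SWI6* at 43.1 ± 2.56, *SWI5* at 50.5 ± 2.59 and *ASH1* at 82.4 ± 14.6, and above 6.65% of the 5610 open reading frames counted. In *jhd2Δ* it stood at 32.3 ± 3.16, next to *SWI4* at 32.8 ± 2.29, and above 33.9% of them. *HO* in *SET1*-G990E OE, at 24.0 ± 3.39, was above 24.4% of open reading frames, in *SET1* OE, at 15.7 ± 1.21, above 14.5%, and in *set1Δ*, at 12.8 ± 1.73, above 11.2%. Its RNA therefore remained in the lower part of the range in all strains.

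The *HO* neighbours on the chromosome did not share the size of its change. *SSB1*, a ribosome-associated chaperone gene which may share reads with its near copy *SSB2*, faces *HO* tail to tail across 364 bases. Its log2 fold changes against WT were 0.08 in *jhd2Δ*, 0.12 in *set1Δ*, 0.02 in *SET1* OE and 0.02 in *SET1*-G990E OE. *GCS1*, the gene of a GTPase-activating protein of vesicle transport, lies beyond the upstream region. *GCS1* had 1174, 1084 and 1195 normalized counts in *jhd2Δ*, 1177, 1073 and 1114 in *set1Δ*, 1113, 1022 and 1106 in *SET1* OE and 1142, 1195 and 1113 in *SET1*-G990E OE, against 1032, 908 and 970 in WT. All mutant cultures but 1 were above all WT cultures, with log2 fold changes of 0.25, 0.21, 0.16 and 0.25 (adjusted p = 0.0035, 0.013, 0.063 and 0.0036 by edgeR with Benjamini-Hochberg adjustment).

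Of the 8 genes beside the regulators, 1 was called, in *jhd2Δ* alone. Of all transcripts 12.2%, 8.58%, 7.69% and 12% were called in *jhd2Δ*, *set1Δ*, *SET1* OE and *SET1*-G990E OE against WT. *TOS4*, a gene of a forkhead-associated-domain protein that faces *SWI6* tail to tail across 191 bases, rose in *jhd2Δ* (log2 fold change 0.64, adjusted p = 2.0e-06 by edgeR) and had 0.29, 0.38 and 0.44 in *set1Δ*, *SET1* OE and *SET1*-G990E OE. *EKI1*, an ethanolamine kinase gene that starts 888 bases from *SWI5* in the opposite direction, had 0.56, 0.21, 0.45 and 0.51. Its adjusted p by edgeR was 5.3e-05, 0.081, 0.00075 and 0.00014 in the same order of mutants, short of 1.5-fold. *KAP123* and *LSM4* beside *SWI4*, *VTA1* beside *SWI6*, *TAF12* beside *SWI5*, and *MTR2* and *SPE1* beside *ASH1* had log2 fold changes between -0.14 and 0.41. Among them *SPE1* had an edgeR adjusted p under 0.05 in every mutant, *VTA1* in every mutant but *SET1* OE, and *KAP123* in *set1Δ* alone.

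Reads on the strand opposite to the members were few. *HO* had 11, 14 and 13 antisense reads in *jhd2Δ*, 18, 17 and 17 in *set1Δ*, 13, 12 and 11 in *SET1* OE and 23, 12 and 20 in *SET1*-G990E OE, against 14, 17 and 12 in WT. After scaling, the *set1Δ* cultures had 24.0, 21.8 and 21.1 normalized antisense counts, above all other cultures and against 13.8, 15.4 and 10.8 in WT. As CPM of the sense library sizes, the *set1Δ* cultures had 2.58, 2.44 and 2.38, against 1.78, 2.06 and 1.46 in WT. The *SET1*-G990E OE cultures had 2.71, 1.33 and 2.47 on that scale, so that *set1Δ* was above WT by either scaling but above *SET1*-G990E OE by the antisense totals alone. The strand that rose in *jhd2Δ* was the coding one: per 100 sense reads there were 2.24, 3.37 and 2.83 antisense reads in *jhd2Δ*, against 17.1, 21.2 and 9.30 in WT.

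Only *HO*, *SWI4* and *ASH1* passed the low-count filter on the antisense strand, 3 of the 5 members, among 2640 antisense transcripts tested. The *HO* antisense log2 fold change was 0.73 for *set1Δ* against WT (standard error 0.30, adjusted p = 0.092 by edgeR with Benjamini-Hochberg adjustment), 0.79 in *set1Δ* against *jhd2Δ* (adjusted p = 0.070) and -0.85 in *SET1* OE against *set1Δ* (adjusted p = 0.052), and none passed the test, although with the replicate number as a block the last one was called at an adjusted p of 0.050, just under the threshold. With sense library sizes used to scale the antisense counts these were 0.48, 0.64 and -0.61, with adjusted p of 0.28, 0.16 and 0.17, and over all alternatives the adjusted p ran from 0.087 to 0.29, from 0.066 to 0.20 and from 0.050 to 0.19. In the other mutants *HO* antisense stood at -0.05 in *jhd2Δ*, -0.11 in *SET1* OE and 0.21 in *SET1*-G990E OE against WT. In these 6 comparisons the test called 0 of 18 values of the 3 genes, 3 had an unadjusted p under 0.05, and DESeq2 called 0. It called 6.21% of all antisense transcripts in *jhd2Δ*, 12.4% in *set1Δ*, 3.52% in *SET1* OE and 6.74% in *SET1*-G990E OE against WT, 13.7% in *set1Δ* against *jhd2Δ* and 13.8% in *SET1* OE against *set1Δ*.

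Antisense reads over *SWI4* numbered 3 to 15 per library and over *ASH1* 6 to 19, and their log2 fold changes against WT ran from 0.22 to 0.84 for *SWI4* and from -0.50 to -0.17 for *ASH1*, with the lowest adjusted p over all pairs at 0.32 and 0.40 in the edgeR test. *SSB1*, which is transcribed toward *HO* in the direction of its antisense reads, had 27321 to 30471 normalized sense counts in *jhd2Δ*, 28114 to 31490 in *set1Δ*, 25910 to 28684 in *SET1* OE and 24194 to 28873 in *SET1*-G990E OE, against 25660 to 27768 in WT. Its part in the *HO* antisense counts was not tested.

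**Figure D4:**
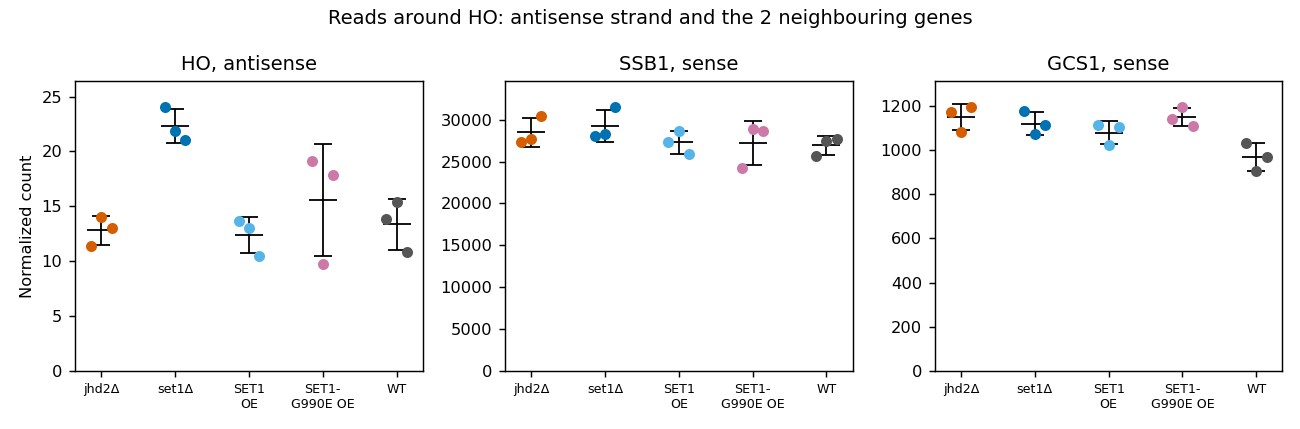
Normalized antisense counts of *HO* and normalized sense counts of its neighbours *SSB1* and *GCS1* (y axes, starting at 0) in *jhd2Δ*, *set1Δ*, *SET1* OE, *SET1*-G990E OE and WT; points are cultures, horizontal ticks means and bars SD (n = 3). The 3 *set1Δ* cultures, at 21.1 to 24.0, are the highest for *HO* antisense when scaled by antisense totals, though not when scaled by sense totals, and *GCS1* is lowest in WT.

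Genes with the *HO* promoter letters were read beside it. Of 761 other genes with at least 1 CACGAAA match in 1000 upstream bases, 710 were tested. In *jhd2Δ* 46 of them rose and 26 fell, 6.48% and 3.66%, where 6.94% and 5.27% of all 5619 transcripts rose and fell, 12.2% together. In *set1Δ* 43 rose and 16 fell, where 5.87% and 2.71% of all rose and fell. In *SET1* OE 20 rose and 22 fell, against 3.81% and 3.88% of all, and in *SET1*-G990E OE 40 rose and 31 fell, against 6.66% and 5.32% of all. The medians of their log2 fold changes were -0.02, 0.02, -0.02 and -0.03, where those of all transcripts lay between -0.01 and 0.00. With at least 2 matches, 48 genes were tested. In *jhd2Δ* 6 (12.5%) of them rose and 4 (8.33%) fell, and in *set1Δ* 7 (14.6%) rose and 1 (2.08%) fell. In *SET1* OE 3 (6.25%) rose and 2 (4.17%) fell, and in *SET1*-G990E OE 4 (8.33%) rose and 3 (6.25%) fell. The share that rose was above that of all transcripts in each mutant, and so was the share that fell in each but *set1Δ*. The medians of these 48 genes were 0.05, 0.08, 0.02 and -0.01, and no test was made on these counts. The 3 other genes with 3 matches were *CLN2* and *BBP1*, which neighbour each other and share upstream bases, and *RNR3*, a ribonucleotide reductase gene. The log2 fold change of *RNR3* was -0.20 in *jhd2Δ*, 0.32 in *set1Δ*, 0.03 in *SET1* OE and -0.10 in *SET1*-G990E OE, and *BBP1*, a spindle pole body gene, had 0.33, 0.34, 0.42 and 0.43.

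*CLN2*, the G1 cyclin gene and the best known SBF target beside *HO*, rose in both deletions. It had 1004 ± 54.9 normalized counts in *jhd2Δ*, 1157 ± 44.1 in *set1Δ*, 881 ± 86.4 in *SET1* OE and 889 ± 86.3 in *SET1*-G990E OE, against 645 ± 59.6 in WT (SD, n = 3 each). Its log2 fold changes were 0.64, 0.84, 0.45 and 0.46, with its highest value in the mutant where *HO* was lowest. In a list of 12 SBF target genes without *HO*, 2 rose in *jhd2Δ* (*CLN2* and *GIN4*, a bud neck kinase gene with 0.60), 1 in *set1Δ* (*CLN2*), 1 in *SET1* OE (*PCL1*, a cyclin gene, with 0.67) and 0 in *SET1*-G990E OE, where 5 had an unadjusted p under 0.05 and DESeq2 called 0. None fell in the 4 comparisons, in which 6, 3, 10 and 5 of the 12 had an unadjusted p under 0.05 in either direction, and DESeq2 called 2, 1, 3 and 0 rises and 0 falls. Of all 5619 transcripts 2914, 2811, 2432 and 2900 had an unadjusted p under 0.05 in the same mutants. In those mutants 6.94%, 5.87%, 3.81% and 6.66% of all transcripts were called higher by edgeR. Lower calls made up 5.27%, 2.71%, 3.88% and 5.32% of all transcripts. The list's medians were 0.27, 0.14, 0.36 and 0.21, and 9, 11, 10 and 9 of its 12 members were above 0.

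*SWI5* belongs to a group of 15 genes transcribed together with the mitotic cyclin gene *CLB2*. In that group *FKH1*, which encodes a forkhead transcription factor of these genes, rose in all 4 mutants, at 1.11, 0.69, 0.69 and 1.15 on the log2 scale for *jhd2Δ*, *set1Δ*, *SET1* OE and *SET1*-G990E OE, and *FKH2*, its partner, rose in *SET1* OE with 0.62. The other 13 members were not called in any mutant, with medians of 0.30, 0.14, 0.15 and 0.24 over the whole group. An unadjusted p under 0.05 was reached by 11, 8, 8 and 12 of the 15, against the 2914, 2811, 2432 and 2900 of all 5619 transcripts, and 12.2%, 8.58%, 7.69% and 12% of all transcripts were called.

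Of 11 genes of SBF and its G1 regulators, *SRL3*, which encodes a relative of the SBF inhibitor Whi5, had the lowest log2 fold change in *jhd2Δ* and *SET1*-G990E OE. It fell in *jhd2Δ*, to 397 ± 31.5 normalized counts, and in *SET1*-G990E OE, to 552 ± 75.0, against 929 ± 42.6 in WT (SD, n = 3 each), or -1.23 and -0.75 on the log2 scale. In *set1Δ* it stood at 0.13 and in *SET1* OE at -0.34, so that the 2 strains with the most *HO* RNA had the least *SRL3* RNA. *CLN3*, the cyclin gene that starts the SBF program, fell in *SET1*-G990E OE by the edgeR test (log2 fold change -0.60, adjusted p = 0.029), not by DESeq2. The other 9 members, *SWI4* and *SWI6* among them, were not called in any mutant. Calls thus numbered 1, 0, 0 and 2 of 11 in *jhd2Δ*, *set1Δ*, *SET1* OE and *SET1*-G990E OE. Of all transcripts 12.2%, 8.58%, 7.69% and 12% were called in these mutants.

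By the rule that the 4 log2 fold changes against WT lie nearest to those of *HO*, measured by the root mean square difference over 5534 open reading frames, the nearest were *TOD6*, *DBP8*, *REI1*, *YGR035C* and *YOR338W*, with differences of 0.21, 0.24, 0.24, 0.25 and 0.26. All of these fold changes share the WT cultures. *TOD6*, a repressor gene of ribosome biogenesis, had 780 ± 34.5 normalized counts in *jhd2Δ*, 366 ± 40.5 in *set1Δ*, 569 ± 55.3 in *SET1* OE and 730 ± 37.5 in *SET1*-G990E OE, against 199 ± 6.12 in WT (SD, n = 3 each). *DBP8* encodes an RNA helicase of ribosome assembly and *REI1* a factor of the large ribosomal subunit. *DBP8* had log2 fold changes of 1.93, 1.08, 1.49 and 1.95, and *REI1* had 1.81, 1.04, 1.37 and 1.83. *YGR035C* stood at 2.26, 0.78, 1.62 and 2.06 in the same order of strains, and *YOR338W* had its highest value, 1.99, in *jhd2Δ* and its lowest, 0.61, in *set1Δ*. Of the 5534 open reading frames, 252 (4.55%) were above WT in all 4 mutants in the same order of strains as *HO*, and 102 of the 5619 transcripts (1.82%) were called higher in all 4.

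**Figure D5:**
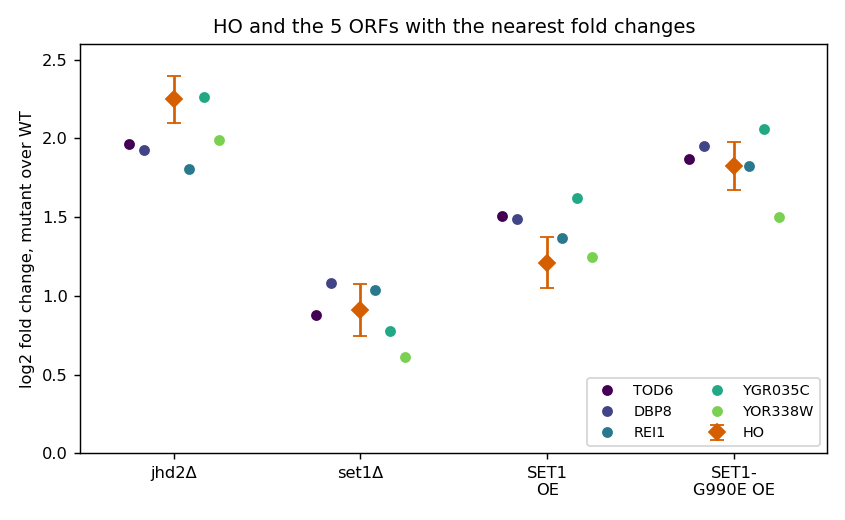
Log2 fold changes over WT (y axis) of *HO* (diamonds, bars are standard errors) and of the 5 open reading frames with the nearest fold changes (circles) in *jhd2Δ*, *set1Δ*, *SET1* OE and *SET1*-G990E OE. *HO* lies at 2.25, 0.91, 1.21 and 1.82. All 6 genes are lowest in *set1Δ*, which for the 5 follows in part from the rule that picked them.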

How the data were processed

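The analysis used stranded RNA-seq of 15 libraries, 3 from independent cultures of each of 5 strains. Reads had been aligned to sacCer3 with Novoalign 2.8.1 and assigned to genes with USeq by the authors, who deposited raw read counts per transcript and strand. Deposited FPKM values, regularized log2 counts and the authors' own fold changes and adjusted p scores from DESeq were not used. The members and gene lists were chosen with earlier results of these data known.

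Counts were fitted with edgeR 4.0.16 in R 4.3.3 (TMM scaling, filterByExpr at a minimum count of 10, 1 quasi-likelihood model over all 15 libraries, 1 mean per strain), which kept 5619 of 5712 sense and 2640 of 5122 antisense transcripts. The p values were adjusted by the Benjamini-Hochberg method over all tested transcripts of a strand, and a call took an adjusted p under 0.05 and a change of 1.5-fold. The fits were tested on simulated data. The 95% intervals come from the standard error of the fit at 10 residual degrees of freedom, with 3 cultures per strain. They describe the uncertainty of a difference between strain means, not the range of single cultures. Levels across genes are TMM-scaled CPM per kb. Totals of 6903094 to 8947346 sense and 72664 to 106762 antisense counts per library make the antisense values much less precise. Motif letters were matched to RefSeq R64 with Python 3.11.15.

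Beside the members, the text names the genes next to them, the 5 open reading frames nearest to *HO* in fold change, and up to 4 called genes per list. The lists are SBF and its G1 regulators, SBF targets, the *CLB2* group, SWI/SNF, SAGA, Mediator with nucleosome factors, Rpd3L, *ASH1* mRNA localization, and **a**, α and haploid markers. A further list is not reported here. Alternatives were DESeq2 1.42.0, its size factors in edgeR, no filter, at least 50 counts in 3 libraries, the 2 strains alone, a replicate block, each library left out, and, for antisense counts, sense library sizes.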

Additional observations from a re-analysis of the deposited data

How the results depend on the processing

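Of 234 alternative values of the members with all libraries in, 233 stayed the same, and of 102 alternative counts of calls 90 stayed within 1.5 times. A tested value stayed the same if it kept its direction and its side of the threshold. A value given without a test stayed the same if it moved by no more than the larger SD of log2 counts within the 2 strains compared. With DESeq2 the antisense calls numbered 75 in *jhd2Δ*, 168 in *set1Δ*, 41 in *SET1* OE and 93 in *SET1*-G990E OE against WT, 178 in *set1Δ* against *jhd2Δ* and 172 in *SET1* OE against *set1Δ*, where edgeR called 164, 328, 93, 178, 362 and 364, and the cause was not tested. With at least 50 counts in 3 libraries, which left 416 antisense transcripts and no member, they were 62, 86, 43, 66, 97 and 97 in that order. Scaling antisense counts by sense library sizes shifted the antisense median by -0.10, -0.26, -0.02 and 0.07 on the log2 scale in *jhd2Δ*, *set1Δ*, *SET1* OE and *SET1*-G990E OE against WT, by -0.15 in *set1Δ* against *jhd2Δ* and by 0.24 in *SET1* OE against *set1Δ*. Higher and lower antisense calls were then 51 and 140 in *jhd2Δ* (74 and 90 without it), 93 and 341 in *set1Δ* (186 and 142), 113 and 65 in *SET1*-G990E OE (94 and 84), 132 and 282 in *set1Δ* against *jhd2Δ* (202 and 160) and 362 and 101 in *SET1* OE against *set1Δ* (159 and 205). With 1 library left out in turn, antisense calls in *SET1* OE against WT ran from 53 to 94, with 53 without *SET1* OE replicate 3, 58 without its replicate 1 and 61 without WT replicate 2. Sense calls between *SET1*-G990E OE and *SET1* OE ran from 6 to 17, with 6 without *SET1*-G990E OE replicate 2 and 7 without *SET1* OE replicate 1, and the *HO* difference from 0.54 to 0.72. Uncalled log2 fold changes against WT near 0 changed sign. On the sense strand *SWI4* ran from -0.17 to 0.057 in *SET1*-G990E OE and from -0.0015 to 0.11 in *SET1* OE, *SWI5* from -0.068 to 0.039 in *SET1*-G990E OE, *SWI6* from -0.023 to 0.069 in *set1Δ* and *ASH1* from -0.19 to 0.074 in *set1Δ*. On the antisense strand *HO* ran from -0.19 to 0.063 in *jhd2Δ* and from -0.25 to 0.0060 in *SET1* OE, *SWI4* from -0.39 to 0.60 in *SET1* OE, and *ASH1* from -0.62 to 0.018 in *set1Δ* and from -0.50 to 0.055 in *SET1* OE. The replicate numbers were not taken as pairing the cultures, since sense deviations of libraries with the same number correlated at -0.22 to 0.33 (median 0.11, against -0.03 for other numbers), over 0.1 in 16 of 30 pairs, and over 0.1 in 0 of 30 antisense pairs, and 10 of 15 libraries correlated best with their own number on either strand, a hint from the data alone. With the replicate block the sense calls between *SET1*-G990E OE and *SET1* OE numbered 16, against 13 without it, and *HO* antisense in *SET1* OE against *set1Δ* was called at -0.85 (edgeR adjusted p = 0.050, just under the threshold; 0.052 without the block).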

Other observations

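Listed genes of SWI/SNF, of SAGA and of Mediator with nucleosome factors did not pass the 1.5-fold threshold in the 4 mutants. The edgeR test and DESeq2 both called 0 of 12 SWI/SNF genes, 0 of 11 SAGA genes and 0 of 13 Mediator and nucleosome factor genes in each of the 4 mutants against WT, where 12.2%, 8.58%, 7.69% and 12% of all transcripts were called in *jhd2Δ*, *set1Δ*, *SET1* OE and *SET1*-G990E OE. In *jhd2Δ*, *set1Δ*, *SET1* OE and *SET1*-G990E OE an unadjusted p under 0.05 was reached by 4, 4, 4 and 5 of the SWI/SNF genes, by 4, 4, 2 and 5 of the SAGA genes and by 5, 6, 4 and 4 of the Mediator and nucleosome factor genes, against 2914, 2811, 2432 and 2900 of all 5619 transcripts. An adjusted p under 0.05 was reached by 3, 4, 3 and 3 of the SWI/SNF genes, 2, 3, 2 and 4 of the SAGA genes and 3, 6, 2 and 3 of the Mediator and nucleosome factor genes, against 44.9%, 42.3%, 34.8% and 44.7% of all transcripts, with fold changes between -0.46 and 0.46 on the log2 scale over the 3 lists. The medians of the 3 lists lay between -0.07 and 0.11 on the log2 scale, where those of all transcripts lay between -0.01 and 0.00. Of the 12 genes of Rpd3L, the deacetylase complex that works with Ash1, 1 was called, *SAP30*, a subunit gene that rose in *SET1* OE (log2 fold change 0.62) and *SET1*-G990E OE (0.73), and stood at 0.56 in *jhd2Δ* and 0.23 in *set1Δ*.

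Of 8 genes that act in carrying *ASH1* mRNA to the bud, *PUF6*, a translational repressor of *ASH1* mRNA, rose in every mutant, by 1.05 on the log2 scale in *jhd2Δ*, 0.65 in *set1Δ*, 0.71 in *SET1* OE and 0.88 in *SET1*-G990E OE. *LOC1*, an RNA-binding protein gene, rose in *jhd2Δ* (0.78) and *SET1*-G990E OE (0.66), and had 0.50 in *set1Δ* and 0.38 in *SET1* OE. Both proteins are also known for roles in ribosome assembly. The other 6 members were not called. Calls numbered 2, 1, 1 and 2 of 8 in *jhd2Δ*, *set1Δ*, *SET1* OE and *SET1*-G990E OE, where 12.2%, 8.58%, 7.69% and 12% of all transcripts were called. An unadjusted p under 0.05 was reached by 6, 7, 7 and 5 of the 8. An adjusted p under 0.05 was reached by 6, 5, 5 and 5, against 44.9%, 42.3%, 34.8% and 44.7% of all transcripts. Among the mating-type markers, *ASG7* fell in *jhd2Δ* (-0.81), *set1Δ* (-0.66) and *SET1* OE (-0.63). *BAR1*, the gene of the protease that degrades α-factor, fell in *set1Δ* (-0.60). *MF(ALPHA)2* rose in *set1Δ* (1.13) and *SET1*-G990E OE (1.25), from only 8, 7 and 8 reads in WT. *STE3* fell in *SET1* OE (-0.62). Of the 7 **a**-specific genes 1, 3, 1 and 0 were called in the 4 mutants, and of the 4 α-specific genes 0, 2, 1 and 1, beside the same shares of all transcripts. Of 7 haploid markers edgeR and DESeq2 called 0 in the 4 mutants, with an unadjusted p under 0.05 in 4, 3, 5 and 4, beside 2914, 2811, 2432 and 2900 of all 5619 transcripts.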
